A study of Mus musculus with 48 samples.

Results

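Oxidative phosphorylation is carried out by 5 protein complexes of the mitochondrial inner membrane, and the mRNAs of their subunits come from both the nucleus and the mitochondrial genome. The genes described here were taken from the liver count tables by name: the subunits of complex I (Nduf a, b, c, s and v), complex II (Sdha to Sdhd), complex III (Uqcr), complex IV (Cox4 to Cox8) and complex V (Atp5), and the mitochondrial rows for NADH dehydrogenase, cytochrome b, cytochrome c oxidase and ATP synthase. Of 104 rows whose name fitted, 97 of 40847 genes in all were kept, 84 from the nucleus and 13 from mitochondrial DNA. Low level removed 6 rows (Cox4i2, Cox6a2, Cox7a1, Cox7b2, Cox8b and Cox8c, several of them isoforms of muscle or other tissues), which did not pass 1 CPM, a count scaled to a common library total, in 3 of 4 mice of any group. A pseudogene suffix removed the last, Ndufs5-ps. The files name the mitochondrial rows without the usual mt- prefix (ND1, CYTB, COX1, ATP6 and so on), and these were matched through their place on the mitochondrial chromosome in RefSeq.

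The nuclear members comprised 42 rows of complex I, 4 of complex II, 8 of complex III, 13 of complex IV and 17 of complex V, and the mitochondrial rows 7, 1, 3 and 2 of complexes I, III, IV and V. Complexes were assigned by gene name alone, which for some members, such as Ndufa4, may differ from the complex that holds the protein. Complex II has no subunit in mitochondrial DNA. Complexes I and II pass electrons from NADH and succinate to ubiquinone, complex III passes them to cytochrome c, complex IV to oxygen, and complex V (ATP synthase) uses the proton gradient that complexes I, III and IV build. Liver uses this system to supply ATP for biosynthesis and to reoxidise the NADH and reduced flavoprotein that come from fatty acid beta-oxidation. Several rows are close copies whose reads could be shared between them (Ndufb4, Ndufb4b and Ndufb4c, Ndufs6 and Ndufs6b, Ndufa11 and Ndufa11b, Cox7c and Cox7c-ps1), so a value of one of these is uncertain.

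Livers came from mice of 10 to 12 weeks at dosing, all on a C57Bl/6J background and all lacking Cyp2b9, Cyp2b10 and Cyp2b13. The hCYP2B6-Tg mice carried in addition a human transgene with CYP2B6, CYP2A13 and CYP2F1, whereas the Cyp2b-null mice carried the deletion alone, and no mouse with its own Cyp2b cluster was included. Each genotype and sex received perfluorooctanesulfonate (PFOS) by oral gavage for 21 days at 10 mg/kg/day (10-PFOS) or 1 mg/kg/day (1-PFOS), or the vehicle, water with a Tween detergent (0-PFOS). This gave 12 groups of 4 livers, 48 libraries of poly(A) mRNA with 44416597 to 82615862 counts each. The comparisons ask which subunit mRNAs changed with dose in each genotype and sex, and whether the change differed by genotype or sex. No source used here names the promoter that drives the transgene.

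Values below are CPM after normalisation by trimmed mean of M values (TMM), a change is a log2 fold change ± SE, and a gene rose or fell where its Benjamini-Hochberg adjusted p, over all genes tested, was below 0.05 in edgeR's quasi-likelihood test. Summed levels of cell type markers are an exception, being CPM scaled to library totals alone, without TMM. Defining hepatocyte mRNAs (Alb, Ttr and 6 others) were high in every group and their summed level was lower with 10-PFOS. It ran from 44471 to 59606 CPM in 10-PFOS hCYP2B6-Tg females, against 113485 to 139447 CPM at 0-PFOS, and from 57396 to 63574 CPM in 10-PFOS Cyp2b-null females, against 122904 to 134923 CPM at 0-PFOS. In males it ran from 52960 to 61229 CPM in 10-PFOS hCYP2B6-Tg mice, against 77623 to 95901 CPM at 0-PFOS, and from 48796 to 58084 CPM in 10-PFOS Cyp2b-null mice, against 84907 to 92668 CPM at 0-PFOS. All 8 hepatocyte markers fell in males of both genotypes and 7 of 8 in females of both. Of 7 macrophage markers 6 and 7 fell in hCYP2B6-Tg and Cyp2b-null females and 2 and 4 in hCYP2B6-Tg and Cyp2b-null males. Their summed level was 110.4 to 179.7 CPM in 10-PFOS hCYP2B6-Tg females, against 277 to 442 CPM at 0-PFOS, and 65.0 to 91.2 CPM in 10-PFOS Cyp2b-null males, against 58.7 to 151 CPM at 0-PFOS. Of 5 erythroid markers 4 and 4 fell in hCYP2B6-Tg and Cyp2b-null females and 5 and 5 in hCYP2B6-Tg and Cyp2b-null males. Their summed level was 121 to 311 CPM in 10-PFOS hCYP2B6-Tg females, against 374 to 680.3 CPM at 0-PFOS, and 142 to 294 CPM in 10-PFOS Cyp2b-null males, against 364 to 675 CPM at 0-PFOS. Stellate markers summed to 161 to 188 CPM in 10-PFOS hCYP2B6-Tg females, against 216 to 304 CPM at 0-PFOS. In hCYP2B6-Tg males they summed to 137 to 163 CPM with 10-PFOS, against 91.1 to 107 CPM at 0-PFOS. Endothelial sums in those females were 201 to 213 CPM, against 245 to 281 CPM at 0-PFOS. In those males they were 135 to 185 CPM, against 99.0 to 159 CPM. Lyve1, an endothelial marker, rose in all 4 groups and Clec4g, another, fell in all 4. Of the hepatocyte, macrophage, erythroid, endothelial and stellate cell markers none was at 0 throughout. Their part in the results on subunits was not tested, and in bulk tissue fewer cells of a type and less RNA per cell cannot be told apart. On the second principal component 8 of the 16 libraries given 1-PFOS, 2 in each group, stood apart from all other libraries, and results that rest on them are given with and without them.

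Summed, the mitochondrial rows stood above the nuclear members in every group. Their sum was 88432 ± 5187 CPM in 10-PFOS hCYP2B6-Tg females and 60454 ± 3691 CPM at 0-PFOS (SD, n = 4 each). In Cyp2b-null females it was 77845 ± 13843 CPM at 10-PFOS and 49942 ± 4128 CPM at 0-PFOS. The 10-PFOS mice lay above the 0-PFOS mice without overlap in both female genotypes. In hCYP2B6-Tg males the sum was 63032 ± 8975 CPM at 10-PFOS and 45571 ± 7502 CPM at 0-PFOS, and in Cyp2b-null males 73282 ± 7311 CPM at 10-PFOS and 49603 ± 7995 CPM at 0-PFOS. The Cyp2b-null males did not overlap, whereas the lowest 10-PFOS hCYP2B6-Tg male, at 52166 CPM, lay below the highest 0-PFOS one, at 55715 CPM.

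Per kb of gene length, COX1, the catalytic subunit of complex IV, was the highest member at 9721 CPM per kb in 0-PFOS Cyp2b-null females, and ATP8, a small subunit of complex V, was the lowest mitochondrial row at 50.9 CPM per kb. The median level was 3296 CPM per kb for the 13 mitochondrial rows and 65.2 CPM per kb for the 78 nuclear members with a length, of which Atp5b was the highest at 406 CPM per kb. ATP6, which is known to share its transcript with ATP8, stood at 6258 CPM per kb. Their genes share 43 of the 204 bases of ATP8, and how reads in a shared stretch were counted is not stated in the sources used here. The stretch, in capitals between 20 bases on either side, is shown because it limits what the ATP8 count can say, and the 7 bases shared by ND4L and ND4 are shown for the same reason (GENCODE M21 transcripts, both on the mitochondrial chromosome).
ATP8 and ATP6: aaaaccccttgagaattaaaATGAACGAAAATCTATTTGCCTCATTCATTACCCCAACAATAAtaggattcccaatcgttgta
ND4L and ND4: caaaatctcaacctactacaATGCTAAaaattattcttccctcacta

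**Figure D1:**
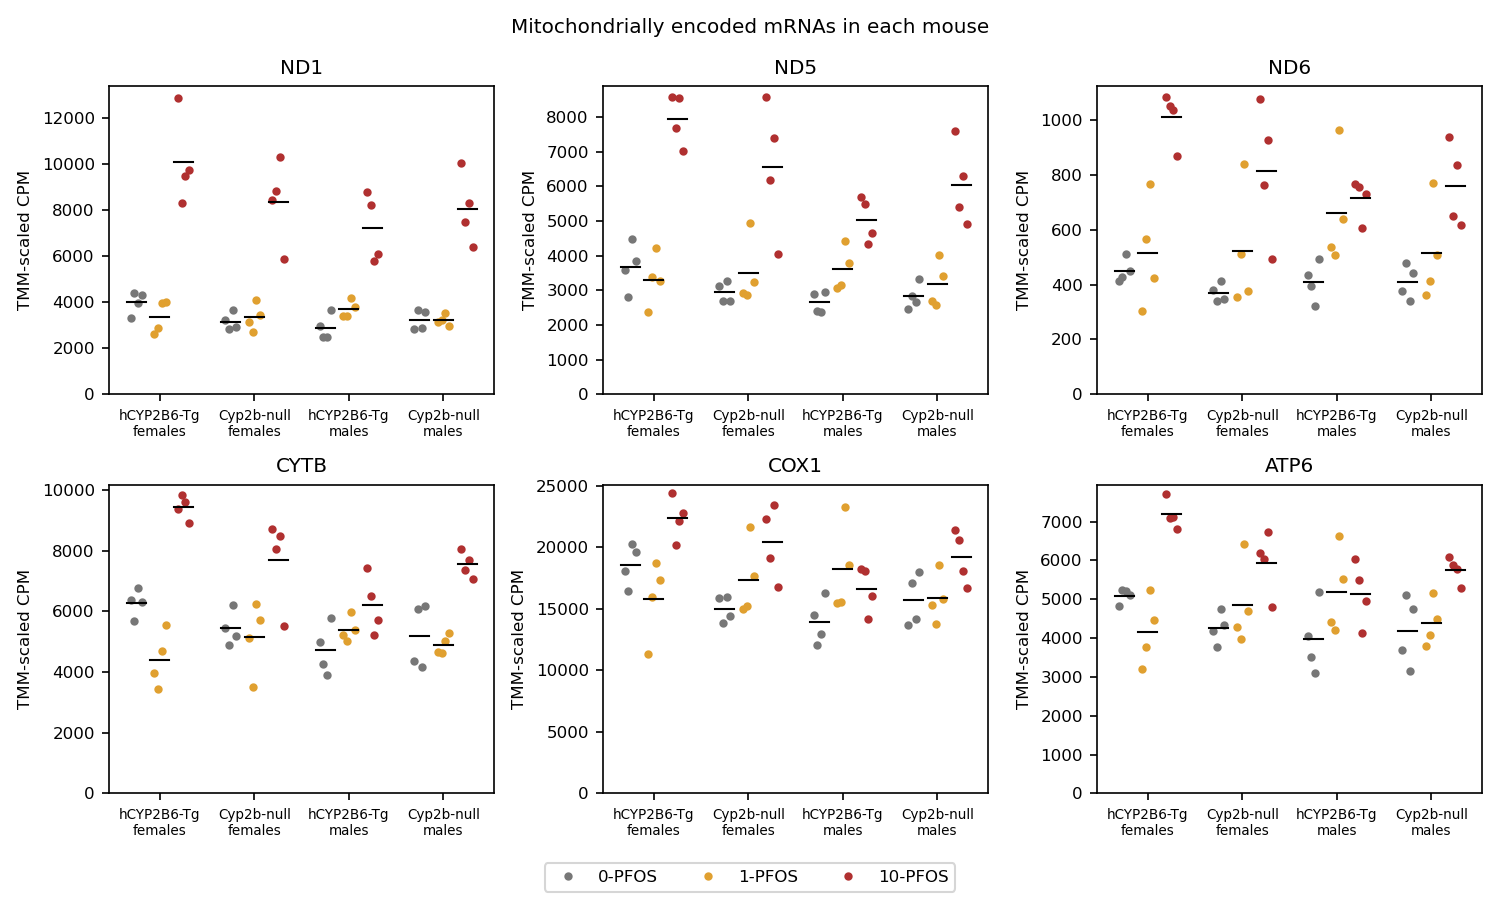
CPM of mitochondrial rows in each mouse (1 point a mouse, bar at the mean, n = 4 a group) by dose within each sex and genotype, 1 panel a gene. For ND1 every 10-PFOS mouse lay above every 0-PFOS mouse of its sex and genotype, whereas COX1 differed by at most 0.44 ± 0.15 on the log2 scale.

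At 10-PFOS no mitochondrial row fell in any group. Of the 13 rows, 10 rose in hCYP2B6-Tg females, where 22.3% of all 13193 genes tested rose, and 11 in Cyp2b-null females, where 19.1% rose. In males 7 rose in hCYP2B6-Tg mice, beside 24.1% of all 12594 genes tested, and 10 in Cyp2b-null mice, beside 22.5%. The median change of the 13 rows was 0.54, 0.62, 0.43 and 0.54 on the log2 scale in these groups in the same order, and that of all genes -0.05, -0.01, -0.02 and -0.01. With library totals alone in place of TMM 9, 11, 13 and 12 rows rose and none fell, and the share of all genes was not counted there. Of the rows, 7 rose in all 4 groups (ND1, ND2, ND3, ND5, ND6, CYTB and COX2), ATP6 and ND4 in 3, COX3 in 2, COX1 and ND4L in 1, and ATP8 in none.

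ND1, a core membrane subunit of complex I at the quinone end, had the largest change of the mitochondrial rows in every group. It lies at chrM:2751-3707 (GRCm38, GENCODE M21), directly downstream of the ribosomal RNA genes and a tRNA. In 10-PFOS hCYP2B6-Tg females ND1 was at 12875, 8291, 9471 and 9724 CPM, against 3302, 4415, 3965 and 4320 CPM at 0-PFOS. In 10-PFOS Cyp2b-null females it was at 8429, 8840, 10308 and 5866 CPM, against 3207, 2839, 3660 and 2911 CPM at 0-PFOS. All treated females thus lay above all 0-PFOS females, and the lowest treated Cyp2b-null mouse was replicate 4. The change was 1.33 ± 0.18 (adjusted p = 3.5e-06) in hCYP2B6-Tg and 1.41 ± 0.18 (adjusted p = 2.3e-06) in Cyp2b-null females.

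In males ND1 was at 8784, 8224, 5805 and 6087 CPM in 10-PFOS hCYP2B6-Tg livers, against 2951, 2482, 2505 and 3643 CPM at 0-PFOS. In Cyp2b-null males it was at 10031, 7493, 8295 and 6386 CPM with 10-PFOS, against 2843, 3657, 2900 and 3564 CPM at 0-PFOS. The groups did not overlap, and the change was 1.32 ± 0.16 (adjusted p = 2.7e-07) in hCYP2B6-Tg and 1.31 ± 0.16 (adjusted p = 3.5e-07) in Cyp2b-null males. ND1 therefore stood between 2.48 and 2.65 times its 0-PFOS level in all 4 pairs of groups.

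ND5 and ND6 had the next largest changes. ND5, a proton-pumping subunit of the membrane arm, was at 5685, 5507, 4329 and 4663 CPM in 10-PFOS hCYP2B6-Tg males, against 2901, 2415, 2391 and 2942 CPM at 0-PFOS. It was at 8590, 6186, 7404 and 4052 CPM in 10-PFOS Cyp2b-null females, against 3114, 2694, 3267 and 2700 CPM at 0-PFOS. Neither pair overlapped, and ND5 changed by 1.11 ± 0.21, 1.16 ± 0.21, 0.92 ± 0.16 and 1.10 ± 0.16 in hCYP2B6-Tg females, Cyp2b-null females, hCYP2B6-Tg males and Cyp2b-null males (adjusted p = 1.7e-04, 1.5e-04, 4.8e-05 and 6.4e-06). ND6, the one mitochondrial subunit gene on the opposite strand, rose by 1.17, 1.13, 0.80 and 0.89 in the same order of groups. ND5 and ND6 overlap at their ends on opposite strands, and whether counting used the strand is not stated in the sources used here.

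The other complex I rows moved less. ND2, another proton-pumping subunit, rose by 0.54, 0.82, 0.56 and 0.78, and ND3, which lines the quinone end, by 0.84, 0.68, 0.56 and 0.57, in the same order of groups. ND4, also a proton-pumping subunit, rose by 0.41, 0.49 and 0.47 in hCYP2B6-Tg females, Cyp2b-null females and Cyp2b-null males, and had a change of 0.26 (adjusted p = 0.24) in hCYP2B6-Tg males. ND4L, a small membrane subunit whose gene lies just before ND4, rose in hCYP2B6-Tg females (0.73 ± 0.18, adjusted p = 0.0017), where it was at 335, 465, 304 and 273 CPM with 10-PFOS, against 205, 197, 232 and 196 CPM at 0-PFOS. In Cyp2b-null males it was at 269.9, 231, 314 and 216 CPM with 10-PFOS, against 339.6, 348, 233 and 295 CPM at 0-PFOS. Those male groups overlapped and the change of -0.24 ± 0.16 did not pass the test (adjusted p = 0.23).

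CYTB, the only mitochondrial subunit of complex III, rose by 0.59, 0.50, 0.39 and 0.54. Of the complex IV rows, COX2, which holds the copper centre that takes electrons from cytochrome c, rose by 0.47, 0.62, 0.43 and 0.52. COX3 had values of 0.34 and 0.32 in hCYP2B6-Tg females and males, which did not pass (adjusted p = 0.062 and 0.097), and rose by 0.47 in Cyp2b-null females and 0.46 in Cyp2b-null males. COX1 rose in Cyp2b-null females alone, where it was at 22308, 19140, 23465 and 16771 CPM with 10-PFOS, against 15865, 13839, 15950 and 14420 CPM at 0-PFOS. That pair did not overlap, and the change was 0.44 ± 0.15 (adjusted p = 0.023), beside 0.27 ± 0.15, 0.26 ± 0.15 and 0.28 ± 0.15 in hCYP2B6-Tg females, hCYP2B6-Tg males and Cyp2b-null males (adjusted p = 0.15, 0.16 and 0.12). No sex or genotype interaction of COX1 was called, so a difference between groups is not shown.

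ATP6, the proton channel subunit of complex V, rose by 0.50, 0.48 and 0.46 in hCYP2B6-Tg females, Cyp2b-null females and Cyp2b-null males, and had a change of 0.38 in hCYP2B6-Tg males (adjusted p = 0.078). ATP8 was at 12.6, 12.8, 10.1 and 11.7 CPM in 10-PFOS Cyp2b-null males, against 6.97, 9.44, 5.33 and 8.43 CPM at 0-PFOS. These mice did not overlap, yet no change of ATP8 passed the test at 10-PFOS (0.36 ± 0.38, 0.64 ± 0.38, 0.65 ± 0.33 and 0.64 ± 0.33, adjusted p between 0.11 and 0.45).

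**Figure D2:**
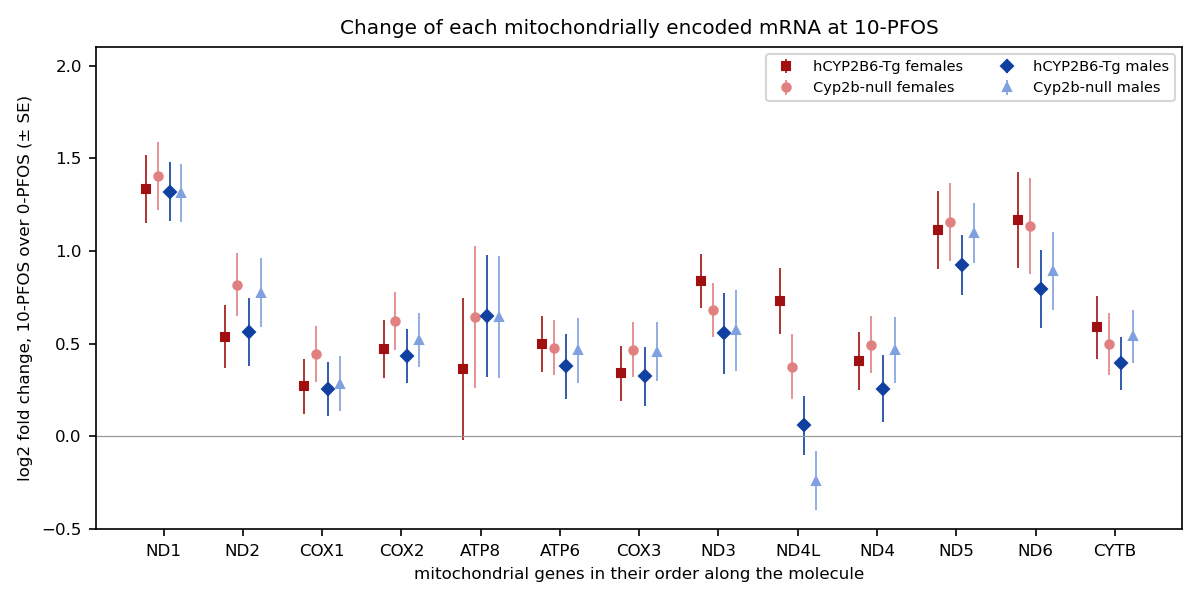
Log2 fold change of 10-PFOS against 0-PFOS (y axis, error bars 1 SE) of the 13 mitochondrial rows in their order along the mitochondrial chromosome (x axis), 1 colour for each sex and genotype. ND1 at the start of the order had changes of 1.31 to 1.41, and ND5 and ND6 near the end had changes of 0.80 to 1.17.

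The ratio of ND1 to COX1 within a library does not depend on library scaling, and it was chosen as a description after these values had been seen. It was 0.448 ± 0.0536 in 10-PFOS hCYP2B6-Tg females and 0.217 ± 0.0376 at 0-PFOS (SD, n = 4 each). In Cyp2b-null females it was 0.407 ± 0.0522 at 10-PFOS and 0.210 ± 0.0133 at 0-PFOS. In males it was 0.431 ± 0.0460 at 10-PFOS and 0.207 ± 0.0126 at 0-PFOS in hCYP2B6-Tg mice, and 0.419 ± 0.0535 at 10-PFOS and 0.206 ± 0.00659 at 0-PFOS in Cyp2b-null mice. The 10-PFOS and 0-PFOS mice did not overlap in any of the 4 pairs, so the mitochondrial rows changed unequally within a library. The share of counts in the 2 mitochondrial ribosomal RNAs, which a poly(A) library holds only in part, was 0.0728 ± 0.0271% in 10-PFOS hCYP2B6-Tg females and 0.104 ± 0.0190% at 0-PFOS, and 0.147 ± 0.0468% in 10-PFOS Cyp2b-null females and 0.0854 ± 0.0261% at 0-PFOS. In males it was 0.123 ± 0.0129% in 10-PFOS hCYP2B6-Tg mice and 0.0850 ± 0.0111% at 0-PFOS, and 0.111 ± 0.0172% in 10-PFOS Cyp2b-null mice and 0.0884 ± 0.0182% at 0-PFOS. Only the hCYP2B6-Tg males did not overlap. Its part in the changes of the mitochondrial mRNAs was not tested.

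The nuclear subunits had smaller median changes, and the count of calls ranged widely over the groups. Of 83 nuclear members tested in each sex, 53 rose in hCYP2B6-Tg females and none fell, beside 22.3% and 24.5% of all genes that rose and fell. In Cyp2b-null females 18 rose and none fell, beside 19.1% and 17.8% of all genes. In hCYP2B6-Tg males 18 rose and none fell, beside 24.1% and 23.9% of all genes, and in Cyp2b-null males 9 rose and 8 fell, beside 22.5% and 21.6%. With TMM, the share of nuclear members that rose was thus above the background in hCYP2B6-Tg females and near or below it in the other 3 groups. The order of the groups differed with library totals alone, as given below. Without Cox6b2, which entered only through its 10-PFOS groups, the rises were 52, 17, 17 and 8 in hCYP2B6-Tg females, Cyp2b-null females, hCYP2B6-Tg males and Cyp2b-null males. The median change of the nuclear members was 0.40 in hCYP2B6-Tg females, 0.12 in Cyp2b-null females, 0.08 in hCYP2B6-Tg males and -0.11 in Cyp2b-null males. Counted over nuclear and mitochondrial members together, 63 rose in hCYP2B6-Tg females, or 41 without replicate 1 of 0-PFOS, and 29 rose in Cyp2b-null females, or 17 without replicate 3 of 10-PFOS.

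With library totals alone in place of TMM, the median change of all genes was -0.17, -0.09, 0.30 and 0.23. These values are for hCYP2B6-Tg females, Cyp2b-null females, hCYP2B6-Tg males and Cyp2b-null males. In the same order, the nuclear members that rose and fell were then 22 and 0, 9 and 0, 44 and 0, and 17 and 0. The shares of all genes that rose and fell under this scaling were not counted, so these counts have no background beside them. The 8 members that fell in Cyp2b-null males all kept a change below 0 with library totals alone, between -0.54 and -0.0042, but none passed the test there. Summed over the nuclear members, the level was 10288 ± 533 CPM in 10-PFOS hCYP2B6-Tg females and 7569 ± 943 CPM at 0-PFOS, and 8705 ± 612 CPM in 10-PFOS Cyp2b-null females and 7613 ± 328 CPM at 0-PFOS. In hCYP2B6-Tg males it was 8354 ± 596 CPM at 10-PFOS and 7500 ± 577 CPM at 0-PFOS, and in Cyp2b-null males 7652 ± 697 CPM at 10-PFOS and 7665 ± 632 CPM at 0-PFOS. The female pairs did not overlap and the male pairs did. The ratio of the mitochondrial to the nuclear sum was 8.63 ± 0.842 at 10-PFOS and 8.09 ± 1.20 at 0-PFOS in hCYP2B6-Tg females, and 8.94 ± 1.44 at 10-PFOS and 6.55 ± 0.275 at 0-PFOS in Cyp2b-null females. In males it was 7.58 ± 1.28 at 10-PFOS and 6.06 ± 0.710 at 0-PFOS in hCYP2B6-Tg mice, and 9.69 ± 1.80 at 10-PFOS and 6.47 ± 0.885 at 0-PFOS in Cyp2b-null mice. The doses did not overlap in Cyp2b-null mice of either sex and did in hCYP2B6-Tg mice.

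**Figure D3:**
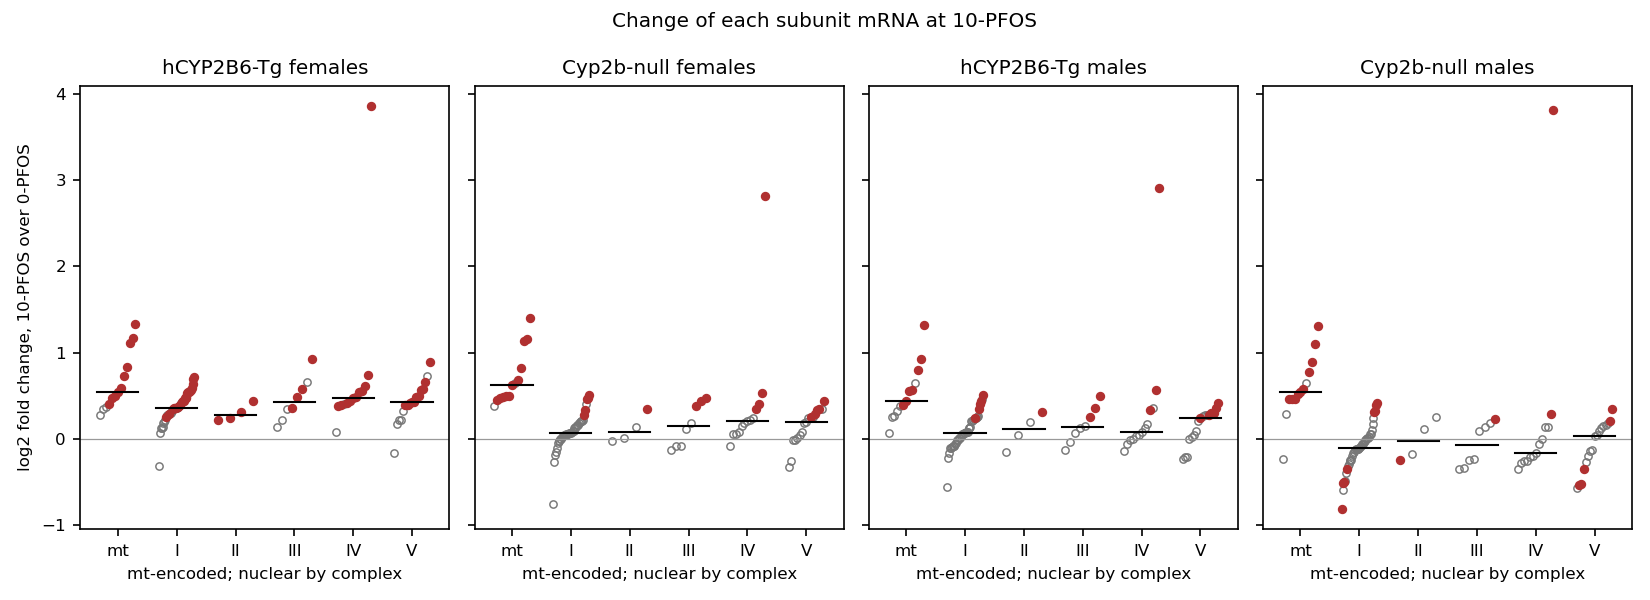
Log2 fold change of 10-PFOS against 0-PFOS of every member (1 point a gene, y axis), grouped by complex and by genome (x axis), 1 panel for each sex and genotype, with called members marked. The mitochondrial rows lay above 0 in every panel apart from ND4L in Cyp2b-null males, and the nuclear members had medians between -0.11 and 0.40.

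The nuclear members that rose in all 4 groups were 7 (Ndufs1, Ndufs7, Ndufa10, Uqcrc2, Cox7a2l, Atp5b and Atp5g1), beside Cox6b2, which passed the filter on low values through 10-PFOS groups alone. Among all 12516 genes tested in both sexes 12.4% rose in all 4, a share that the nuclear members did not exceed. A further 9 nuclear members rose in 3 groups, 3 in 2, 33 in hCYP2B6-Tg females and no other group, and 31 in none. Shares of all genes with these patterns were not counted, so the patterns are not read as a trait of the members. A pattern of calls does not show that groups differ, and the tests of those differences are given with the genotype and the sex comparisons.

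The promoters of these genes are shown for 4 members that moved differently, since nuclear subunit genes are known to share sites for NRF-1, YY1, ERR and Ets factors. The windows run from 250 bases before to 50 bases after the gene start (RefSeq, GRCm38.p6), and windows of 67 of the 84 nuclear members were used. Members with no promoter window under their name were left out, whatever their motifs, as were any on a chromosome that was set aside for members. Windows of Uqcrc1, which holds NRF-1 type letters, and of Uqcr10, which holds none of the motifs searched, were also read and are not printed. The windows shown are therefore not a sample of members with and without motifs. Ndufs7, which rose in all 4 groups, has a YY1-type motif (AAGATGGCG, in capitals) at its start. Atp5g3, among the largest rises of hCYP2B6-Tg females, holds an ERR half-site type motif (AAGGTCA, here on the other strand) and an NRF-1 type motif (the second stretch in capitals). Atp5j, which fell in Cyp2b-null males, has the YY1-type motif, and Cox6b2, which was near 0 at 0-PFOS, an Sp1-type motif (GGGCGG).
Ndufs7, chr10:80249199-80249498, plus strand: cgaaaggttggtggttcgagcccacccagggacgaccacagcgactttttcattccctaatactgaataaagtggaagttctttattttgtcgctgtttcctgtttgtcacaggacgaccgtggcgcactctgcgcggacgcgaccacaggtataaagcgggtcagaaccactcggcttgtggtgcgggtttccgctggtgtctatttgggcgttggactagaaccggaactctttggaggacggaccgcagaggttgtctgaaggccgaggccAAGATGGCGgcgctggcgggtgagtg
Atp5g3, chr2:73911277-73911576, minus strand: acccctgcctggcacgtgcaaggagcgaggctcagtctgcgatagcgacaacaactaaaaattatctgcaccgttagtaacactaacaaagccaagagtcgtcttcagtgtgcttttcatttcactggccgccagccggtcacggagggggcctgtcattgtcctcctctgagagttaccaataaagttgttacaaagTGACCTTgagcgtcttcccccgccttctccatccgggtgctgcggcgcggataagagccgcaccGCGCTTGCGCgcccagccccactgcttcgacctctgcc
Atp5j, chr16:84834927-84835226, minus strand: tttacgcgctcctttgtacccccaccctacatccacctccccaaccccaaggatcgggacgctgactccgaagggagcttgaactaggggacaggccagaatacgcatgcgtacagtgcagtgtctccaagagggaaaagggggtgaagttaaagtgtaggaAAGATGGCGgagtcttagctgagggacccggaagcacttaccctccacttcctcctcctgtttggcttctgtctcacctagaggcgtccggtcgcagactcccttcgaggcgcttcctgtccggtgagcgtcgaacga
Cox6b2, chr7:4753045-4753344, minus strand: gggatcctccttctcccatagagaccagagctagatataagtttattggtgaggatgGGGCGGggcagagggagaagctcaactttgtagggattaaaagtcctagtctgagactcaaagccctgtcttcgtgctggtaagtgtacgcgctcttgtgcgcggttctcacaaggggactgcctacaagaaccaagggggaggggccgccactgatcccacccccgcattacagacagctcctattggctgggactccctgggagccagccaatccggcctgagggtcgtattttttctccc

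Both strands of all 27025 promoters in the table were searched, a total that keeps the chromosome set aside for members. The NRF-1 type letters were in 17 of the 67 member promoters (25.4%), beside 4.68% of all, and the YY1 type in 7 (10.4%), beside 1.49% of all. The ERR half-site type was in 8 (11.9%), beside 4.66%, the Ets type (CCGGAAGT) in 5 (7.46%), beside 3.93%, and the Sp1 type in 26 (38.8%), beside 35.6%. The DR1 type, a pair of AGGTCA repeats 1 base apart as PPAR factors bind, was in none of the 67, beside 0.0481% of all. Of the 17 members with the NRF-1 type letters 11 rose in hCYP2B6-Tg females, 2 in Cyp2b-null females, 3 in hCYP2B6-Tg males and 0 in Cyp2b-null males. Of the 50 others 33, 10, 10 and 7 rose in the same order of groups. These matches are of letters and are given as a description.

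Complex I nuclear subunits that rose in all 4 groups were Ndufs1 and Ndufs7, core subunits that carry iron-sulphur clusters, and Ndufa10, an accessory subunit. Ndufs1 was at 117, 125, 126 and 116 CPM in 10-PFOS hCYP2B6-Tg females, against 74.9, 74.5, 79.7 and 82.9 CPM at 0-PFOS, and at 114, 88.8, 118 and 93.9 CPM in 10-PFOS Cyp2b-null females, against 73.8, 73.3, 82.8 and 71.6 CPM at 0-PFOS. In males Ndufs1 was at 91.7, 90.1, 89.5 and 83.1 CPM in 10-PFOS Cyp2b-null livers, against 60.4, 71.1, 64.1 and 70.7 CPM at 0-PFOS. No treated mouse of these groups overlapped a 0-PFOS mouse, and the change was 0.63 ± 0.10, 0.46 ± 0.10, 0.44 ± 0.07 and 0.41 ± 0.07 in hCYP2B6-Tg females, Cyp2b-null females, hCYP2B6-Tg males and Cyp2b-null males (adjusted p = 2.0e-05, 8.2e-04, 3.9e-05 and 9.2e-05).

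Ndufs7 rose by 0.55, 0.51, 0.40 and 0.39 and Ndufa10 by 0.69, 0.47, 0.34 and 0.32 in the same order. Ndufa7, an accessory subunit, rose in 3 groups. In hCYP2B6-Tg females Ndufv1, the subunit that binds NADH, changed by 0.59 ± 0.10 (adjusted p = 2.9e-05). Altogether 23 of 41 tested nuclear members with a complex I name (Ndufa4 among them) rose in hCYP2B6-Tg females, 5 each in Cyp2b-null females and in hCYP2B6-Tg males, and 4 in Cyp2b-null males, where 4 others fell (Ndufa1, Ndufv3, Ndufs6b and Ndufa13). Ndufa4l2, a paralogue of Ndufa4 known to respond to hypoxia, was near 1 CPM, passed the filter through 0-PFOS groups alone and was tested in females alone, where its values of -0.32 ± 0.49 for hCYP2B6-Tg mice and -0.76 ± 0.49 for Cyp2b-null mice did not pass.

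Ndufa1, a small membrane subunit, had the largest fall in Cyp2b-null males. It was at 3.94, 6.74, 7.78 and 8.05 CPM with 10-PFOS, against 11.1, 16.7, 10.1 and 8.83 CPM at 0-PFOS. The groups did not overlap, the highest 0-PFOS mouse being replicate 2 and the lowest treated mouse replicate 1, and the change was -0.82 ± 0.28 (adjusted p = 0.020). In hCYP2B6-Tg males its change was -0.56 ± 0.28 (adjusted p = 0.097), and in females 0.12 ± 0.23 for hCYP2B6-Tg and -0.28 ± 0.23 for Cyp2b-null mice, none of which passed.

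The 4 subunits of complex II did not share one pattern of calls. Sdhb, the iron-sulphur subunit, rose in 3 groups, by 0.44 ± 0.13 in hCYP2B6-Tg females, 0.35 ± 0.13 in Cyp2b-null females and 0.31 ± 0.11 in hCYP2B6-Tg males, and its value in Cyp2b-null males was 0.25 ± 0.11 (adjusted p = 0.068). Sdha, the flavoprotein that oxidises succinate, was at 373, 347, 344 and 358 CPM in 10-PFOS hCYP2B6-Tg females, against 289, 318, 308 and 312 CPM at 0-PFOS, and at 254, 266, 282 and 262 CPM in 10-PFOS Cyp2b-null males, against 320.3, 322, 309.7 and 316 CPM at 0-PFOS. Neither pair overlapped, and Sdha rose in hCYP2B6-Tg females (0.21 ± 0.08, adjusted p = 0.032) and fell in Cyp2b-null males (-0.25 ± 0.08, adjusted p = 0.015), a fall that did not pass with library totals alone. The membrane anchors Sdhc and Sdhd rose in hCYP2B6-Tg females alone (0.24 and 0.31), with no interaction of theirs called.

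Of the 8 nuclear members of complex III (the Uqcr rows, without Cyc1, which was counted with the electron carriers), Uqcrc2, a core protein, rose in all 4 groups, by 0.49, 0.38, 0.36 and 0.23 in hCYP2B6-Tg females, Cyp2b-null females, hCYP2B6-Tg males and Cyp2b-null males. Its partner core protein Uqcrc1 rose in 3 groups. Uqcr10, a small subunit, was at 121, 169, 135 and 137 CPM in 10-PFOS hCYP2B6-Tg females, against 62.4, 87.7, 72.4 and 73.2 CPM at 0-PFOS, and at 106, 104, 136 and 97.0 CPM in 10-PFOS Cyp2b-null females, against 69.6, 83.7, 83.2 and 83.1 CPM at 0-PFOS. All treated females lay above all 0-PFOS females, and the change was 0.93 ± 0.14 (adjusted p = 8.1e-06) in hCYP2B6-Tg and 0.47 ± 0.13 (adjusted p = 0.0082) in Cyp2b-null females. In males Uqcr10 rose in hCYP2B6-Tg mice (0.49 ± 0.15, adjusted p = 0.0085) and had a change of 0.14 ± 0.15 in Cyp2b-null mice (adjusted p = 0.48). Uqcrb, Uqcrh and Uqcrq passed the test in no group.

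In complex IV, Cox6b2, an isoform of Cox6b1 known chiefly from testis, was near 0 in 0-PFOS livers. It passed the filter of 1 CPM in 3 of 4 mice through 1 group a sex, 10-PFOS hCYP2B6-Tg females and 10-PFOS Cyp2b-null males, so a high level with 10-PFOS was a condition of its being included, and its values are given as a description with no test. In 10-PFOS hCYP2B6-Tg females it was at 2.78, 1.27, 2.83 and 2.68 CPM, against 0.124, 0.202, 0.0411 and 0.265 CPM at 0-PFOS, and in 10-PFOS Cyp2b-null females at 0.131, 2.16, 0.736 and 3.52 CPM, against 0, 0.247, 0.494 and 0.187 CPM at 0-PFOS. The hCYP2B6-Tg females did not overlap, whereas in Cyp2b-null females replicate 1 of 10-PFOS lay within the 0-PFOS range.

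In males Cox6b2 was at 1.49, 0.819, 0.953 and 0.284 CPM in 10-PFOS hCYP2B6-Tg livers, against 0.231, 0.0276, 0.112 and 0.101 CPM at 0-PFOS, and at 1.16, 1.25, 1.10 and 2.67 CPM in 10-PFOS Cyp2b-null livers, against 0.0948, 0.0631, 0.151 and 0.122 CPM at 0-PFOS. In neither male genotype did the doses overlap. As raw counts these are small, 64, 68, 62 and 158 in 10-PFOS and 6, 4, 10 and 8 in 0-PFOS Cyp2b-null males, and replicate 1 of the 0-PFOS Cyp2b-null females had 0. The ubiquitous isoform Cox6b1 rose in hCYP2B6-Tg females (0.61 ± 0.22, adjusted p = 0.027) and stood far above Cox6b2, at 232 CPM per kb in 10-PFOS hCYP2B6-Tg females, where Cox6b2 stood at 4.09 CPM per kb.

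Cox7a2l, a Cox7a-like protein known for joining complexes III and IV in supercomplexes, was at 86.7, 84.1, 71.4 and 84.5 CPM in 10-PFOS hCYP2B6-Tg males, against 57.3, 57.1, 46.7 and 59.4 CPM at 0-PFOS. The groups did not overlap, and Cox7a2l rose by 0.55, 0.53, 0.57 and 0.29 in the 4 groups. Cox7a2, the liver-type Cox7a subunit, rose in 3 groups and Cox4i1, the regulatory subunit of most tissues, in females of both genotypes (0.55 ± 0.11 for hCYP2B6-Tg mice and 0.34 ± 0.11 for Cyp2b-null mice). In hCYP2B6-Tg females 10 of the 12 nuclear members of complex IV other than Cox6b2 rose, Cox6c and Cox7c-ps1 being the others. Cox5b, for example, changed by 0.74 ± 0.22 (adjusted p = 0.0094) there and by -0.35 ± 0.23 (adjusted p = 0.22) in Cyp2b-null males.

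**Figure D4:**
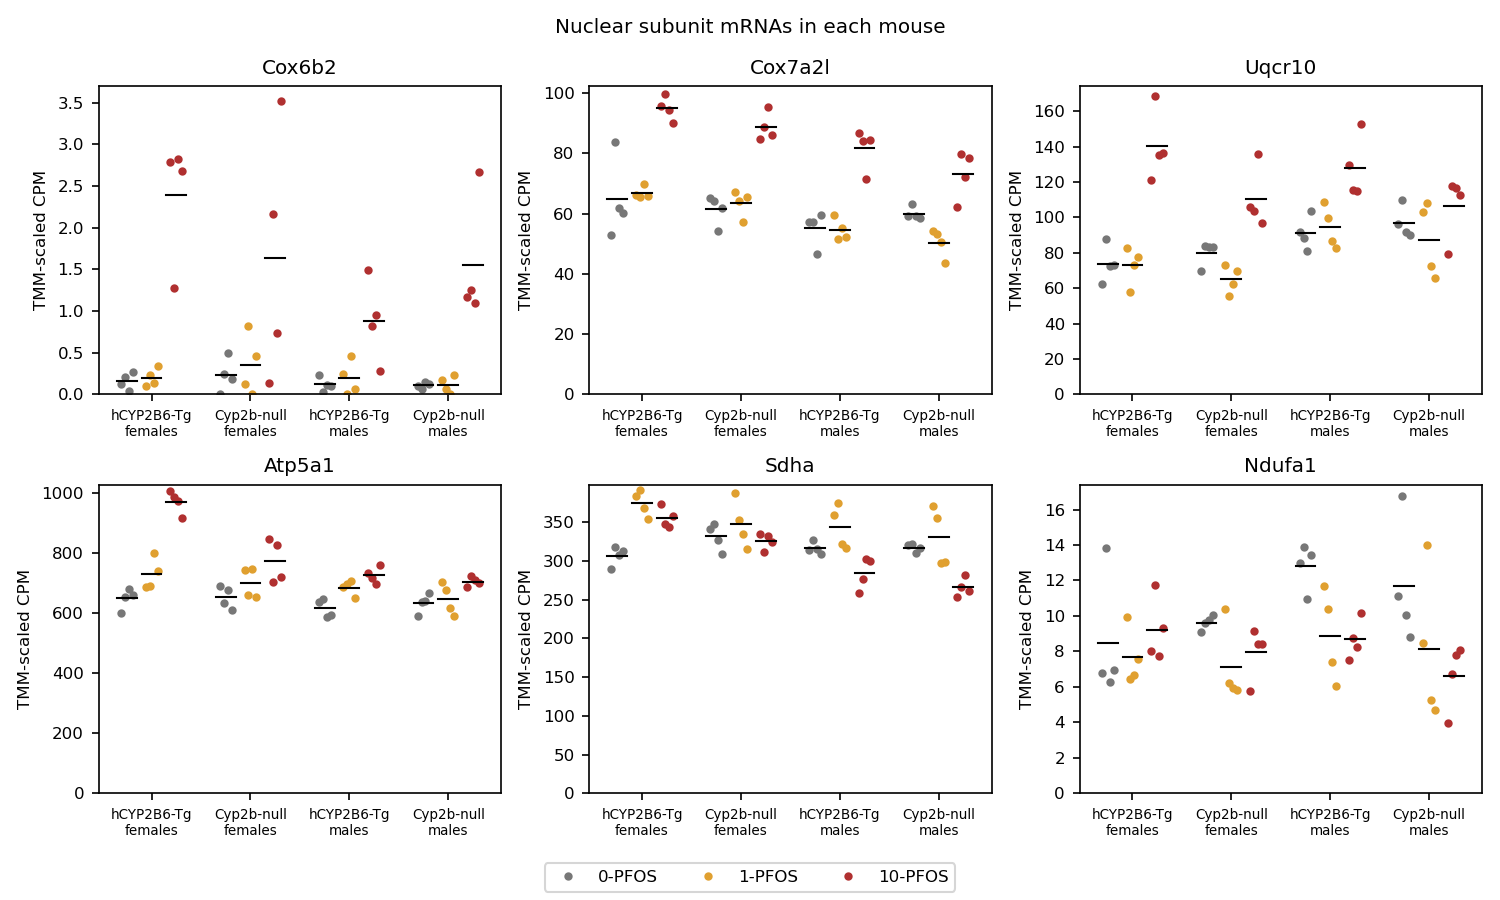
CPM of nuclear members in each mouse (1 point a mouse, bar at the mean, n = 4 a group) by dose within each sex and genotype, 1 panel a gene. Uqcr10 was at 121, 169, 135 and 137 CPM in 10-PFOS hCYP2B6-Tg females, against 62.4, 87.7, 72.4 and 73.2 CPM at 0-PFOS, and Cox6b2 stayed below 4 CPM in every mouse.

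In complex V, Atp5b, the catalytic beta subunit, rose in all 4 groups, by 0.56, 0.34, 0.28 and 0.20, and Atp5a1, the alpha subunit, in 3, by 0.58, 0.25 and 0.24 in hCYP2B6-Tg females, Cyp2b-null females and hCYP2B6-Tg males. Atp5c1, the gamma subunit, rose in the same 3. Atp5g1, Atp5g2 and Atp5g3 are known to encode the same mature ring subunit. Atp5g1 rose in all 4 groups (0.49, 0.33, 0.42 and 0.34), Atp5g3 in hCYP2B6-Tg females alone and Atp5g2 in none. Atp5g3 was at 352, 418, 319.6 and 342 CPM in 10-PFOS hCYP2B6-Tg females, against 174, 252, 163 and 186 CPM at 0-PFOS. These did not overlap, and the change was 0.89 ± 0.24 (adjusted p = 0.0048).

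Of the complex V members 3 small subunits fell in Cyp2b-null males (Atp5md, Atp5e and Atp5j). Atp5md, a small membrane subunit, was at 14.9, 23.2, 21.5 and 20.0 CPM with 10-PFOS, against 28.1, 34.1, 25.8 and 26.9 CPM at 0-PFOS in that group. All treated mice lay below all 0-PFOS mice, and the change was -0.53 ± 0.15 (adjusted p = 0.0059). In hCYP2B6-Tg females the same gene rose by 0.39 ± 0.15 (adjusted p = 0.040). Atp5e, the epsilon subunit, changed by -0.54 ± 0.22 (adjusted p = 0.049) and Atp5j, coupling factor 6, by -0.35 ± 0.14 (adjusted p = 0.040) in Cyp2b-null males, where Atp5e was at 43.5, 55.7, 56.9 and 56.4 CPM with 10-PFOS, against 77.9, 104, 65.9 and 60.9 CPM at 0-PFOS.

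The 8 falls in Cyp2b-null males rested in part on single libraries. Without replicate 2 of 0-PFOS, or without replicate 1 of 10-PFOS, 2 members fell in place of 8, and without replicate 1 of 0-PFOS 10 members rose in place of 19. Fitted on the compared groups alone, 13 fell. Of the 6 falling members with a protein-coding transcript length, 2 were under 700 bases and 2 of 1500 to 4000 bases. Ndufs6b, with a longest transcript of 348 bases, was outside this count, which took protein-coding transcripts alone. Length moved with the change of genes at large. Other protein-coding genes with transcripts under 700 bases had a median change of 0.24 in hCYP2B6-Tg females and -0.20 in Cyp2b-null males, and those over 4000 bases -0.14 and -0.02. The 25 nuclear members under 700 bases had medians of 0.41 and -0.16 in these groups, and the 16 of 1500 to 4000 bases 0.46 and 0.11. With an offset for length added after seeing the data, members that rose and fell were 52 and 0 in hCYP2B6-Tg females, 28 and 2 in Cyp2b-null females, 23 and 9 in hCYP2B6-Tg males and 24 and 16 in Cyp2b-null males. The shares of all genes that rose and fell with this offset were not counted. The part of length in these results was not tested further.

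**Figure D5:**
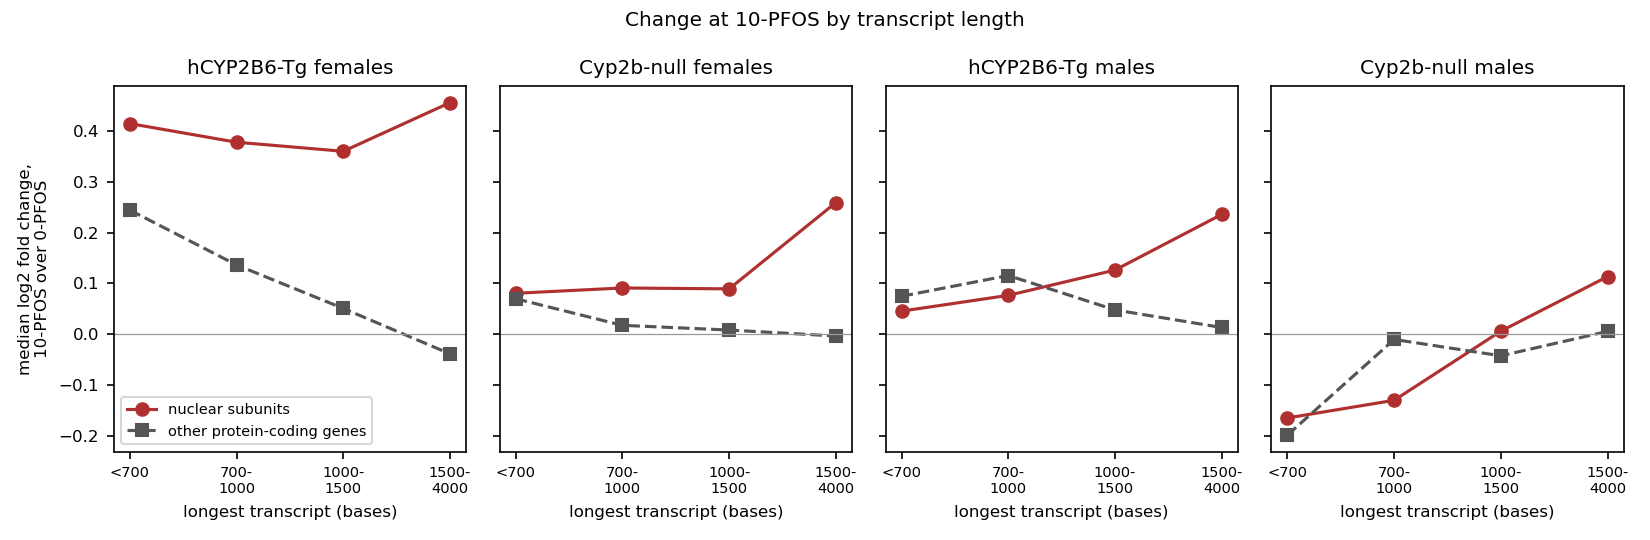
Median log2 fold change of 10-PFOS against 0-PFOS (y axis) by class of transcript length (x axis), for nuclear members and for other protein-coding genes, 1 panel for each sex and genotype. Other genes under 700 bases had medians of 0.24 in hCYP2B6-Tg females and -0.20 in Cyp2b-null males, and those of 1500 to 4000 bases -0.04 and 0.01.

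At 1-PFOS few members passed, and this comparison shares its 0-PFOS mice with that of 10-PFOS. In edgeR's test 0 of 96 members were called in hCYP2B6-Tg females, Cyp2b-null females and Cyp2b-null males, beside 2.27%, 0.697% and 3.62% of all genes, with 14, 9 and 6 members at an unadjusted p under 0.05 beside 17.4%, 14.4% and 19.1% of all genes. DESeq2 called 3, 1 and 0 members that rose in these groups. In hCYP2B6-Tg males 5 members rose and none fell, beside 8.72% and 5.98% of all genes: ATP8 (0.97 ± 0.33), ND6 (0.69 ± 0.21), Uqcrc2 (0.29 ± 0.08), Ndufs1 (0.24 ± 0.07) and Ndufa10 (0.23 ± 0.07), with adjusted p between 0.011 and 0.048. ND6 was at 538, 509, 964 and 638 CPM in 1-PFOS hCYP2B6-Tg males, against 436, 396, 320.2 and 493 CPM at 0-PFOS. ATP8 was at 10.6, 8.14, 21.4 and 12.3 CPM in 1-PFOS hCYP2B6-Tg males, against 4.42, 6.67, 6.27 and 9.29 CPM at 0-PFOS. The highest values of both were in replicate 3, which is among the 8 libraries that stood apart. Without those 8, 1 member rose in this group. Leaving out 1 library at a time, 0 rose without replicate 3 of 1-PFOS, and 1 without replicate 4 of 1-PFOS or without replicate 1, 2 or 3 of 0-PFOS.

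No change of ND1 passed at 1-PFOS. It was at 3139, 2694, 4091 and 3443 CPM in 1-PFOS and 3207, 2839, 3660 and 2911 CPM in 0-PFOS Cyp2b-null females, with a change of 0.08 ± 0.18 (adjusted p = 0.86). In hCYP2B6-Tg females the change was -0.25 ± 0.18, in hCYP2B6-Tg males 0.35 ± 0.16 and in Cyp2b-null males -0.01 ± 0.16 (adjusted p = 0.51, 0.13 and 0.98). The 1-PFOS and 0-PFOS Cyp2b-null females overlapped.

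Genotypes were compared at each dose. At 0-PFOS no member, and 0% of all genes, was called in hCYP2B6-Tg against Cyp2b-null females or males, and 0 members were at an unadjusted p under 0.05 in either sex, beside 5.12% of all genes in females and 6.84% in males. DESeq2 called 0 and 0 members. At 1-PFOS 0 members were called in females and males, beside 0% and 0.889% of all genes, with 0 and 2 at an unadjusted p under 0.05 (6.26% and 11.3% of all genes) and 0 and 0 called by DESeq2. At 10-PFOS 1 member was called in females, beside 3.59% of all genes. It was Atp5a1, at 1004, 985, 971 and 916 CPM in hCYP2B6-Tg and 844, 701, 827 and 719.9 CPM in Cyp2b-null females given 10-PFOS. The genotypes did not overlap, and the difference was 0.33 ± 0.09 (adjusted p = 0.047), a call lost when any 1 of 7 of the 8 10-PFOS libraries was left out.

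The direction was shared more widely than the calls. Members of a comparison were measured in the same livers and can move together within a library, so a count of members above 0 is a description, not a count of replicates. At 10-PFOS the fitted level was higher in hCYP2B6-Tg females for all 83 nuclear members set against Cyp2b-null females, with a median difference of 0.23, and 24 were at an unadjusted p under 0.05 (18.4% of all genes), while 51.5% of all genes lay above 0 with a median of 0.01. These 83 include Cox6b2, which in females passed the filter through 10-PFOS hCYP2B6-Tg mice alone, so its direction there was a condition of its inclusion. In males Cox6b2 passed through 10-PFOS Cyp2b-null mice alone. The change with 10-PFOS was also larger in hCYP2B6-Tg females for all 83, by a median of 0.26 (median of all genes -0.01), but the genotype by dose interaction was called for 0 members and 0% of all genes, with 8 members at an unadjusted p under 0.05 (10.3% of all genes) and 0 called by DESeq2. In males 74 of 83 nuclear members were higher in hCYP2B6-Tg mice at 10-PFOS, by a median of 0.14 (median of all genes -0.01), and 0 members were called (0.0556% of all genes) with 8 at an unadjusted p under 0.05 (8.36% of all genes) and 1 by DESeq2. The male interaction was called for 0 members and 0% of all genes, with 2 at an unadjusted p under 0.05 (8.46% of all genes) and 0 by DESeq2. With library totals alone 81 nuclear members lay above 0 in the male interaction, beside a median of 0.08 for all genes. The genotype difference and the interaction share their 10-PFOS mice, so these counts are not separate observations. Mitochondrial rows did not share this direction, with 5 of 13 above 0 in the female and 3 of 13 in the male interaction.

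Between sexes, the change with 10-PFOS was compared as females minus males. In hCYP2B6-Tg mice 1 of 97 members was called, beside 6.5% of all 13271 genes in this fit. It was Sdha (0.35 ± 0.11, adjusted p = 0.038), whose change within each sex was 0.21 in hCYP2B6-Tg females and -0.16 in hCYP2B6-Tg males. Of 84 nuclear members 82 had a positive difference, beside 47.9% of all genes, with a median of 0.26, and 12 were at an unadjusted p under 0.05 (20.7% of all genes). The 84 include Cox6b2, which passed the filter through 10-PFOS groups alone. In Cyp2b-null mice 0 members were called, beside 0.949% of all genes, with 7 at an unadjusted p under 0.05 (11.5% of all genes) and 0 by DESeq2, and 80 of 84 nuclear members had a positive difference, beside 51.0% of all genes, with a median of 0.17. These directions were read from members measured in the same livers, which are not replicates of one another, and they depended on the scaling. With library totals alone 9 of 84 nuclear members in hCYP2B6-Tg and 16 of 84 in Cyp2b-null mice had a positive difference, with medians of -0.19 and -0.14, where the medians of all genes were -0.44 and -0.30. The Sdha difference turned to -0.079 with library totals alone, and the count of members called in hCYP2B6-Tg mice was 9 without the 8 libraries that stood apart, 8 without replicate 2 of the 0-PFOS females, and 0 without any 1 of replicates 3 and 4 of the 0-PFOS females and replicates 1 and 2 of the 10-PFOS females or males.

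The lists of genes around oxidative phosphorylation are given by counts and medians at 10-PFOS, to be read beside the 22.3%, 19.1%, 24.1% and 22.5% of all genes that rose and the 24.5%, 17.8%, 23.9% and 21.6% that fell in hCYP2B6-Tg females, Cyp2b-null females, hCYP2B6-Tg males and Cyp2b-null males. Mitochondrial beta-oxidation genes had median changes of 1.05, 0.80, 0.91 and 0.90 in hCYP2B6-Tg females, Cyp2b-null females, hCYP2B6-Tg males and Cyp2b-null males, with 14, 11, 13 and 13 of 15 rising and none falling. Acadm, the medium-chain acyl-CoA dehydrogenase, rose by 1.39, 1.06, 1.14 and 1.10 in these groups. Citrate cycle genes had medians of 0.55, 0.46, 0.43 and 0.39, with 13, 13, 12 and 12 of 17 rising and none falling, and Dlst (a 2-oxoglutarate dehydrogenase subunit) rose by 1.00, 0.68, 0.73 and 0.64. Genes listed with electron carriers, of which 11 of 17 act in ubiquinone synthesis (the Coq and Pdss genes), had medians of 0.61, 0.37, 0.42 and 0.34. Of the 17, 12, 11, 12 and 11 rose and 0, 1, 1 and 2 fell. This list also holds Ndufab1, a complex I name that the member rule did not match, which rose by 0.58, 0.39, 0.45 and 0.38. The ubiquinone synthesis genes held 7, 8, 9 and 8 of the rises and 0, 1, 1 and 2 of the falls. Cytochrome c (Cycs) rose in 3 groups, Etfb, a subunit of the electron transfer flavoprotein, in 2 and its partner Etfa in none. Etfdh, which passes electrons from beta-oxidation to ubiquinone, rose by 0.80, 0.34, 0.45 and 0.36.

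Assembly factors of the complexes rose in 15, 13, 18 and 16 of 42 cases and fell in 1, 1, 1 and 1, with medians of 0.26, 0.18, 0.22 and 0.15 in the same order of groups. Genes of mitochondrial DNA replication (4 of 24) and of mitochondrial transcription, RNA processing and stability rose in 12, 8, 11 and 13 of 24 cases and fell in 2, 1, 3 and 1, with medians of 0.35, 0.29, 0.36 and 0.32. Lrpprc, which stabilises mitochondrial mRNAs, rose by 1.01, 0.69, 0.75 and 0.77 and Tfb2m, a mitochondrial transcription factor, by 0.65, 0.52, 0.72 and 0.64 in the 4 groups, whereas Tfam, which packages and transcribes mitochondrial DNA, had changes of 0.19, 0.12, 0.09 and 0.05 that did not pass in any group. The 4 replication genes (Polg, Polg2, Twnk and Ssbp1) held 3, 2, 1 and 2 of these rises and 1, 1, 1 and 0 of the falls. Of 10 regulators of oxidative phosphorylation genes 0, 1, 0 and 3 rose and 3, 2, 2 and 2 fell. Ppargc1a, a coactivator of mitochondrial biogenesis, fell in 3 groups and had changes of -1.21, -1.43, -0.72 and -0.78, of which that in hCYP2B6-Tg males did not pass (adjusted p = 0.060). Other regulators went the other way. Pprc1 rose in Cyp2b-null females (0.76) and males (0.82), and Ppargc1b rose in Cyp2b-null males (0.75), with neither called in hCYP2B6-Tg mice. Genes of the mitochondrial membranes, 6 of the 17 from the outer membrane (Tomm and Vdac genes), rose in 14, 12, 12 and 12 of 17 cases and fell in 1, 0, 1 and 0. Of the 6 outer membrane genes 6, 5, 5 and 5 rose, and Ucp2, an uncoupling protein family member, rose by 0.84, 0.95, 1.94 and 1.64.

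Ribosomal protein genes, another set with many small products, were counted in the same way. Cytosolic ribosomal protein genes rose in 103, 90, 99 and 77 of 116 or 117 cases, with medians of 0.70, 0.57, 0.71 and 0.41. Mitochondrial ribosomal protein genes rose in 36, 21, 34 and 21 of 78 cases and fell in 0, 0, 1 and 5, with medians of 0.30, 0.25, 0.27 and 0.11.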

How the data were processed

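Poly(A) mRNA of 48 snap-frozen livers, separate mice by their labels, was sequenced as paired ends. Per the study's methods and the submitters' processing notes, the authors trimmed reads with Trim Galore after FastQC, used RSEM and GRCm39, and counted with featureCounts, with versions and strand setting not stated in the sources used here. The 2 deposited tables, 1 a sex, hold whole-number counts that were not normalized. Of the counts above 0, 91.1% were even numbers. Per sex 25 rows broken across lines were left out (0.0432% and 0.0281% of counts in females and males). The other files, which hold the authors' lists, fold changes and p-values, and 64 further columns of per-sample values were not used.

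Genes above 1 CPM in at least 3 of 4 mice of any group were tested with edgeR 4.0.16 in R 4.3.3 (quasi-likelihood F test, TMM), with 1 fit of 24 libraries a sex and 1 of all 48 for sex, and Benjamini-Hochberg adjustment over all genes. DESeq2 1.42.0, RLE size factors, library totals alone, no filter, mitochondrial rows left out, a replicate block, the compared groups alone and leaving out each mouse were alternatives. A length offset and leaving out 8 libraries were added after seeing the data. Fits were tested on simulated data. Lengths and coordinates are GRCm38, since no GRCm39 reference was used here.

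Members and lists were chosen with earlier results of these data known. The genes named by rule were the mitochondrial rows, the Sdh genes, the 3 largest rises and falls among called nuclear members in each group at 10-PFOS and the 2 largest at 1-PFOS, tissue-restricted isoforms, and up to 5 called members of each genotype or sex comparison. Other members named (such as Ndufs1, Ndufv1, Atp5b, Atp5g1, Uqcrc1, Cox4i1 and Cox5b) were chosen after their values were seen, for their counts of groups or their roles. For Atp5if1 no row was matched.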

Additional observations from a re-analysis of the deposited data

Results flagged for a closer look

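In 23 of 366 sets of 4 mice 1 library stood far from the other 3, where chance gives about 1 in 20. The value given is its gap to the nearest mouse over the range of the group, set against Dixon's critical value at the 95% level. In females given 10-PFOS, replicate 2 of hCYP2B6-Tg was high in Atp5e (84.9 CPM, the others 63.3 to 64.1, gap 0.962) and in the nuclear sum (11079 CPM, gap 0.849) and low in Cox6b2 (1.27 CPM, the others 2.68 to 2.83, gap 0.907), replicate 1 of hCYP2B6-Tg was high in the ND1 to COX1 ratio (0.528, gap 0.848), and replicate 3 of Cyp2b-null was high in the nuclear sum (9614 CPM, gap 0.848). In 1-PFOS females, replicate 3 of hCYP2B6-Tg was high in Cox7a2l (69.9 CPM, gap 0.894), replicate 2 low in Ndufa4l2 (0.155 CPM, gap 0.901), and replicate 1 of Cyp2b-null high in Ndufa1 (10.4 CPM, gap 0.908). In 0-PFOS females, replicate 2 of hCYP2B6-Tg was high in Ndufa1 (13.8 CPM, the others 6.26 to 6.97, gap 0.907), replicate 1 of Cyp2b-null was low in Atp5md (19.2 CPM, gap 0.895) and Uqcr10 (69.6 CPM, the others 83.1 to 83.7, gap 0.956), and replicate 3 high in the ND1 to COX1 ratio (0.229, gap 0.88).

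In males given 10-PFOS, replicate 3 of hCYP2B6-Tg was low in Cox7a2l (71.4 CPM, gap 0.833). Replicate 1 of Cyp2b-null was low in Atp5e (43.5 CPM, the others 55.7 to 56.9, gap 0.908) and Uqcr10 (79.4 CPM, the others 113 to 118, gap 0.876), replicate 4 was high in Cox6b2 (2.67 CPM, gap 0.904) and replicate 3 high in ND3 (632 CPM, gap 0.89). In 1-PFOS Cyp2b-null males, replicate 2 was high in Atp5md (34.9 CPM, gap 0.8293), replicate 4 low in Uqcrc2 (113 CPM, gap 0.872) and replicate 3 high in COX2 (4851 CPM, gap 0.903). In 0-PFOS males, replicate 4 of hCYP2B6-Tg was high in ND2 (3695 CPM, gap 0.864), and replicate 2 of Cyp2b-null was high in Ndufa7 (56.0 CPM, the others 42.3 to 43.8, gap 0.893) and in the nuclear sum (8609 CPM, the others 7276 to 7395, gap 0.911). The last and replicate 1 of 10-PFOS Cyp2b-null males are the libraries without which 2 members in place of 8 fell in that group.

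The change of Sdha with 10-PFOS differed between the sexes in hCYP2B6-Tg mice, with a difference of 0.348 (females minus males, log2, edgeR adjusted p = 0.038), where the fits of each sex alone gave 0.21 in females and -0.16 in males. In Cyp2b-null mice no member passed the same test.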

How the results depend on the processing

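The counts of members that passed (26 counts) were recomputed under 9 alternatives other than leaving out a mouse, and 194 of the 234 values stayed within 1.5 times the value given. With library totals alone 31, 57 and 29 members rose at 10-PFOS in hCYP2B6-Tg females, hCYP2B6-Tg males and Cyp2b-null males, 0 fell in Cyp2b-null males, 2 rose at 1-PFOS in hCYP2B6-Tg males, 0 differed by genotype in 10-PFOS females, and 2 differed by sex in hCYP2B6-Tg mice. With the length offset 9 fell in hCYP2B6-Tg males, 2 in Cyp2b-null females and 16 in Cyp2b-null males at 10-PFOS, 2 and 1 rose at 1-PFOS in hCYP2B6-Tg and Cyp2b-null females, and 12 differed by sex in hCYP2B6-Tg mice. DESeq2 found 3, 1 and 8 members that rose at 1-PFOS in hCYP2B6-Tg females, Cyp2b-null females and hCYP2B6-Tg males, 3 and 1 that differed by genotype in 10-PFOS females and males, and 5 that differed by sex in hCYP2B6-Tg mice. RLE size factors gave 1 and 3 that rose at 1-PFOS in hCYP2B6-Tg females and males and 3 by sex in hCYP2B6-Tg mice. Without a filter, 2 rose at 1-PFOS in hCYP2B6-Tg males, and 0 differed by genotype in 10-PFOS females and 0 by sex in hCYP2B6-Tg mice. With mitochondrial rows left out of the library totals, 1 and 2 rose at 1-PFOS in hCYP2B6-Tg females and males and 0 differed by genotype in 10-PFOS females. Fitted on the compared groups alone, 3 rose at 1-PFOS in hCYP2B6-Tg males, 1, 2 and 13 fell at 10-PFOS in hCYP2B6-Tg males, Cyp2b-null females and Cyp2b-null males, and 0 differed by genotype in 10-PFOS females and 2 by sex in hCYP2B6-Tg mice. Without the 8 libraries that stood apart, 1 rose at 1-PFOS in hCYP2B6-Tg males, 1 and 13 fell at 10-PFOS in hCYP2B6-Tg and Cyp2b-null males, and 2 differed by genotype in 10-PFOS females and 9 by sex in hCYP2B6-Tg mice. Shares of all genes were not counted under these alternatives, so these counts have no background beside them. The causes were not tested.

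Leaving out 1 mouse at a time, members that rose at 10-PFOS were 41 to 73 in hCYP2B6-Tg females, 17 to 29 in Cyp2b-null females, 19 to 27 in hCYP2B6-Tg males and 10 to 21 in Cyp2b-null males, where 2 to 10 fell. At 1-PFOS 0 to 2 rose and 0 to 1 fell in hCYP2B6-Tg females, 0 to 6 rose in hCYP2B6-Tg males and 0 to 1 fell in Cyp2b-null males. Genotype gave 0 to 1 in 10-PFOS females and in males, and sex 0 to 8 in hCYP2B6-Tg mice. Replicate numbers did not pair the mice: every same-number correlation passed 0.1 in 1 of 14 pairs of groups, and 21 of 56 libraries correlated best with their own number. With the replicate number as a block 61 and 26 members rose at 10-PFOS in hCYP2B6-Tg females and males, 4 rose at 1-PFOS in hCYP2B6-Tg males and 1 in Cyp2b-null females.

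Under the alternatives other than leaving out a mouse, named genes kept their direction and side of the threshold in 740 of 817 comparisons. In 40 a call was lost, in 29 a call was gained, and 8 reversed. Sdha reversed to 4.268e-05 in Cyp2b-null females with mitochondrial rows left out, and with library totals alone to 0.16 in hCYP2B6-Tg males and to -0.079 for the sex difference in hCYP2B6-Tg mice. With library totals alone Sdhd reversed to -0.058 in Cyp2b-null females and 0.077 in Cyp2b-null males, and ND4L to 0.023 in Cyp2b-null males. With the length offset Sdhd reversed to -0.064 in hCYP2B6-Tg males and -0.025 in Cyp2b-null females. Leaving out 1 mouse at a time, 614 of 736 results of named genes stayed the same. A call was lost in 107, gained in 6, and the direction reversed in 9, so many single-gene calls rested on single mice. Sdha in Cyp2b-null females ran between -0.059 and 0.0085 in these fits and Sdhd there between -0.035 and 0.064. In hCYP2B6-Tg males Sdhd ran between -0.036 and 0.079 and ND4L between -0.017 and 0.16. With 4 mice a group, rows at a low level had wide SEs, such as 0.33 to 0.38 for ATP8. In such rows a change of the size of the nuclear medians (up to 0.40) may not pass the test. Rows at a higher level, such as Ndufs1 and Sdha, had smaller SEs.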
